A study of Homo sapiens with 2 samples.

Results

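Core autophagy genes are the genes whose proteins build the autophagosome, the membrane sac that encloses cytoplasm and delivers it to the lysosome. The 37 genes described here were listed by name from their roles, with earlier results of these data known but without a rule on measured values, and all 37 were found among the 28117 named genes of the tables. The data came from HEK293T cells, an established human embryonic kidney cell line, grown in medium with serum. One culture was given a synthetic non-targeting control RNA and the other a synthetic copy of tRF-3004b, a fragment of a transfer RNA, both 5′-phosphorylated. Both RNAs were brought in by lipid reverse transfection at 500 nM and cells were harvested 120 h later, so the groups share the transfection and the dose. They are called the control library and the tRF library below, and the tRF library models a high dose of added RNA in 1 cell line. Poly-A RNA was sequenced from 1 library per group. No replicate spread could be measured and no p-value is given: each comparison is of 2 libraries, not of the conditions. The 95% intervals, other than those of medians over genes, cover counting error only.

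Autophagy starts when the ULK kinase complex is switched on at a membrane site, and a class III PI3-kinase complex around Beclin 1 then marks the membrane with the lipid PI3P. PI3P-binding WIPI proteins recruit the lipid carrier ATG2 and a ubiquitin-like conjugation system, which attaches ATG8 proteins (LC3 and GABARAP) to the growing membrane. Cargo receptors such as p62 bind ATG8 proteins and ubiquitinated cargo. In cultured cells the pathway is known to run at a low level in rich medium and to rise when amino acids are scarce, and several of its genes are described targets of the transcription factors TFEB and ATF4.

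The 2 transfected RNAs are shown first because the region that could pair with messages as a microRNA seed (bases 2 to 8, in capitals) sets which members can be asked about a matching site. Both are written 5′ to 3′ as RNA.
tRF-3004b: uCAAAUCUcgguggaaccucca
control RNA: cGUACGCGgaauacuucgauu

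The heptamer complementary to the tRF-3004b seed, AGATTTG, was present in the 3′ UTR of 5 of the 36 members with a coding transcript pair, or 13.9%, against 13.6% of the 14976 genes searched. The heptamer for the control RNA, CGCGTAC, was in none of the 36 and in 0.234% of the genes searched. The sites in 4 of the 5 genes are given below with up to 11 bases on each side, read from the GENCODE transcript paired with the leading coding transcript on GRCh38, with the heptamer in capitals. The fifth gene, RB1CC1, has its site at base 879 of its 3′ UTR.
ATG5, base 1845 of the 3′ UTR: acttctgatctAGATTTGaaagtaaattt
ATG16L1, base 162: gggatttctgaAGATTTGactgaggtctc
BECN1, base 603: tttgtaataaaAGATTTGctgcagtctga
UVRAG, base 196: ttttgctttcaAGATTTGcttttcgggcc

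The site genes went in both directions. Log2 ratios, taken as the tRF library over the control library, were 0.90 for ATG5, 0.64 for ATG16L1, 0.19 for RB1CC1, -0.14 for BECN1 and -1.67 for UVRAG. Their median was 0.19, and that of the 30 measured members without a site was -0.28. Over all genes the order was the opposite one. The median was -0.26 for the 1792 genes with a site and -0.09 for the 10069 without. These medians were not adjusted for transcript length. Log2 ratios of all genes were lower for longer transcripts, with a Spearman rho of -0.30. The part of length in the difference between genes with and without a site was not tested. A matching heptamer is a description of the letters and does not show binding.

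Depth was unequal, at 19609933 estimated counts for the control RNA and 1809193 for tRF-3004b, which is 10.8 times fewer. The median member had 697 counts with the control RNA and 50 with tRF-3004b, and 11 of the 37 had under 20 counts with the latter. Of the HEK293T marker list, VIM stood at 1447 and 980 CPM (counts scaled to a common library size) in the control and tRF libraries, NEFL at 97.8 and 52.9, NEFM at 10.7 and 13.5 and CDH2 at 50.1 and 44.5, while PAX2 was near 1 CPM in both and LHX1 had 61 and 0 counts. Summed markers of other cell types were higher in the tRF library at low levels, with 36.6 and 118 CPM for 10 fibroblast genes, 11 and 42.8 for 9 epithelial genes and 3.36 and 31.5 for 8 blood cell genes. COL1A2 had 8 and 31 counts, LUM 34 and 45, KRT20 10 and 24 and HLA-DRA 5 and 14. Not all were higher. FBLN1, the best counted fibroblast gene of the control library, had 23.7 and 20.8 CPM, at a log2 ratio of -0.19 (interval -0.71 to 0.30). PDGFRA, on 58 and 6 counts, was at 0.21 with an interval that held 0. FAP, KRT5, KRT14 and MS4A1 had 0 in the tRF library, on at most 3 counts in the control library. The part of these markers in the members' values was not tested. In bulk RNA, fewer cells of a type and less RNA per cell cannot be told apart.

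Core autophagy genes shifted little between the libraries, and more of them were below 0 than above. Of the 37, MAP1LC3A had no counts and TFEB had too few, and 35 passed a mean CPM of at least 1. Of these, 24 had a log2 ratio below 0 and 11 above, or 68.6% below against 55.5% of the 13750 genes that passed the same filter. The median was -0.24 (exact order-statistic interval -0.46 to -0.01), beside -0.11 for all genes. This interval, like those of the list medians below, reflects only the spread among the listed genes. Those genes share both libraries and are not independent replicates, so it does not measure a difference between the conditions. None of the 35 was at least 2-fold higher, where 12.2% of all genes were. ULK2, UVRAG and WIPI1 were at least 2-fold lower (WIPI1 passed the filter through its control level alone), which is 8.57% of the 35 where 14.2% of all genes were. At a mean CPM of 10 or more, 0 of 30 members were at least 2-fold higher against 6.12% of all such genes, and 2 of 30 were lower against 8.55%.

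The counting interval lay wholly above 0 for 7 members and wholly below 0 for 13, or 37.1%, where 23.3% and 28.6% of all genes did so. Only ULK2 had an interval wholly beyond 2-fold lower, as did 1.94% of all genes. The share above 0 was near that of all genes, and nothing particular to these genes is read from the others. Summed over all 37 genes, autophagy messages took 1923 and 1844 CPM in the control and tRF libraries (log2 ratio -0.06, interval -0.11 to -0.01). Of all genes past 2-fold, 46.3% were higher with scaled counts and 21.8% with gene TPM (a level per transcript length) and 1 added, and the latter scale moved the median of all genes to -0.38 and that of the members to -0.46. Directions near 0 below therefore hold for the scaled counts.

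**Figure D1:**
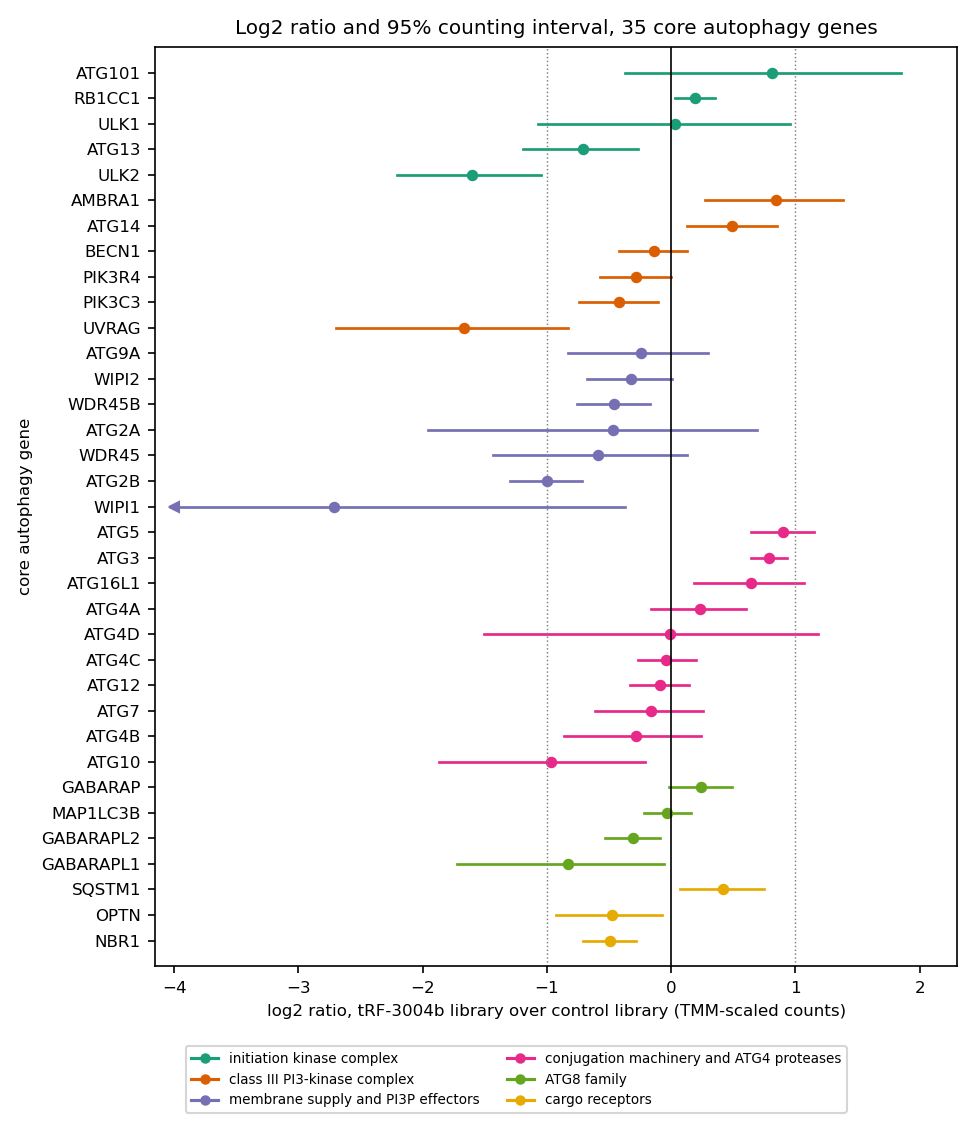
Log2 ratio of the tRF library over the control library for the 35 measured core autophagy genes, as TMM-scaled counts with 0.5 added. Points are the ratios, bars the exact 95% counting intervals, colours the roles and dotted lines a 2-fold difference, and the arrow marks an interval that runs past the axis. ULK2, UVRAG and WIPI1 lie beyond 2-fold lower, ATG3 and ATG5 have the highest narrow intervals, and all 7 membrane supply and PI3P effector genes lie below 0.

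Per length, GABARAPL2, ATG3, MAP1LC3B and GABARAP were the most abundant members. In the control library GABARAPL2 had 337 TPM, ATG3 205, MAP1LC3B 152, GABARAP 125 and BECN1 90, and the ATG8 family held 38% of the members' summed TPM. In the tRF library ATG3, at 296 TPM, stood above GABARAPL2, at 216. MAP1LC3B and GABARAP, at 118 and 117 TPM, could not be ordered there. The conjugation machinery and ATG4 proteases held 28.7% of the summed TPM with the control RNA and 39.1% with tRF-3004b. Their sum went from 479 to 532 TPM, while that of all members went from 1669 to 1363. Of the 10 genes in this group, only ATG3, ATG5 and ATG16L1 had more TPM in the tRF library, and ATG3 had by far the largest gain.

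Paralog pairs were unequal in level. ULK2 stood 4.91-fold above ULK1 in control cells (11.6 and 2.36 TPM) and 1.57-fold above it in tRF cells (2.99 and 1.9 TPM). ATG2B exceeded ATG2A 11.7-fold and 8.19-fold in the control and tRF libraries, and WDR45B exceeded WDR45 3.68-fold and 5.04-fold. Of the 4 ATG4 proteases, ATG4C had the highest TPM in both libraries, followed by ATG4A, ATG4B and ATG4D. These folds have no interval, and the lower member of each pair rested on 31 or fewer counts in the tRF library in all but the ATG4A comparison.

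**Figure D2:**
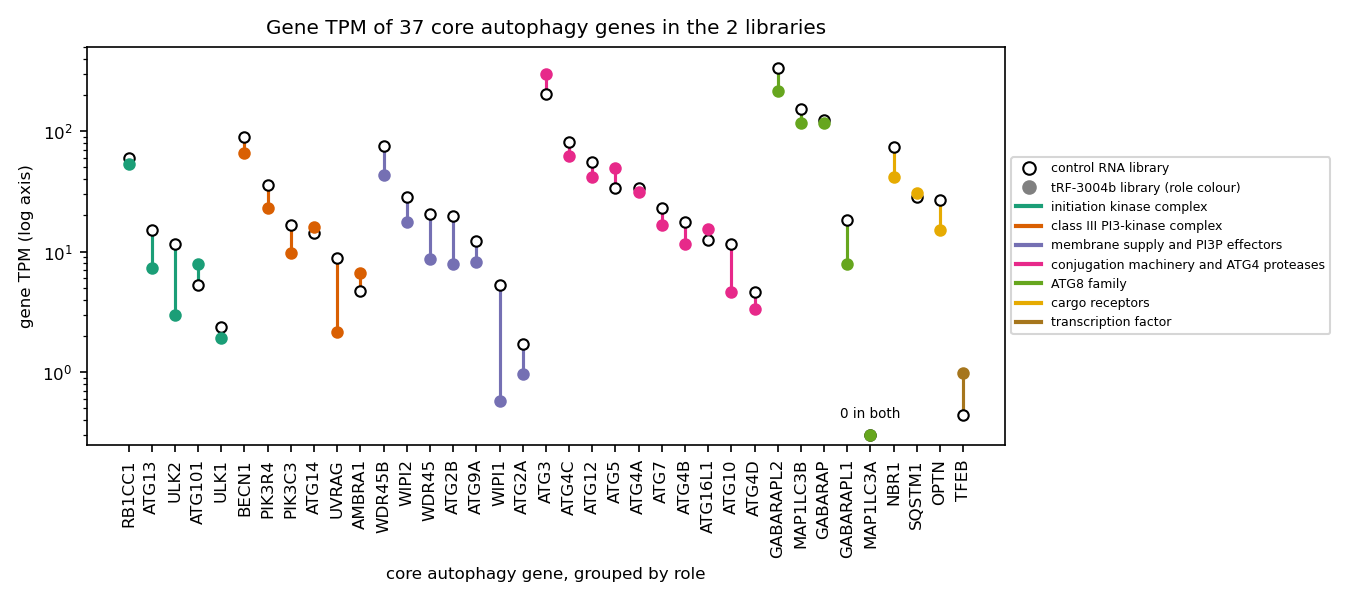
Gene TPM (log axis) of the 37 core autophagy genes in the control RNA library (open points) and the tRF library (filled points), grouped by role. GABARAPL2, ATG3, MAP1LC3B and GABARAP are the highest in both libraries, and the longest downward lines are those of WIPI1, UVRAG and ULK2. MAP1LC3A, at 0 in both, is drawn at the bottom of the axis.

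In the initiation complex, the kinase gene ULK2 and the subunit gene ATG13 were lower, and the scaffold gene RB1CC1 was slightly higher in scaled counts. ULK2, a serine/threonine kinase that starts autophagy (chromosome 17, 19770830 to 19867936, GRCh38), had 922 and 27 counts in the control and tRF libraries, or 46.2 and 15.2 CPM. It was 3.03-fold lower, a log2 ratio of -1.60 (interval -2.21 to -1.05). Its partner kinase ULK1 (chromosome 12, 131894622 to 131923150) had 110 and 10 counts, or 5.52 and 5.63 CPM, at 0.03 (-0.21 with TPM and 1 added), and its interval from -1.07 to 0.96 allows a 2-fold change either way. The intervals of ULK1 and ULK2 overlapped from -1.07 to -1.05, and the difference between the paralogs was not tested.

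The other subunits of the complex have scaffolding roles. ATG13, the regulatory subunit that mTORC1 and ULK kinases phosphorylate (chromosome 11, 46617553 to 46674518), had 39.6 and 24.2 CPM and a log2 ratio of -0.71 (interval -1.19 to -0.27). RB1CC1, also called FIP200, the large scaffold (chromosome 8, 52622458 to 52714435), had 176 and 200 CPM on 3500 and 356 counts, at 0.19 (interval 0.03 to 0.35). The small subunit ATG101 had 57 and 9 counts at 0.81, with an interval from -0.37 to 1.85. RB1CC1 was the best counted of the 5 and the only one with an interval above 0, but with TPM and 1 added it stood at -0.15.

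The PI3-kinase subunits that define alternative complexes went opposite ways. ATG14 and UVRAG bind Beclin 1 in place of each other, ATG14 for autophagosome formation and UVRAG for endosomal trafficking and later steps. ATG14 (chromosome 14, 55366391 to 55411830) had 29.5 and 41.7 CPM on 589 and 74 counts, at a log2 ratio of 0.49 (interval 0.13 to 0.85). UVRAG (chromosome 11, 75815210 to 76144232) had 19.9 and 6.19 CPM on 396 and 11 counts, 3.18-fold lower at -1.67 (interval -2.70 to -0.83). These intervals were far apart, although that of UVRAG rests on 11 counts.

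The other subunits and the adaptor of the complex also went both ways. BECN1, the Beclin 1 gene (chromosome 17, 42810132 to 42824282), had 75.5 and 68.7 CPM at -0.14 (interval -0.42 to 0.13). The catalytic subunit PIK3C3 had 69.2 and 51.8 CPM at -0.42 (interval -0.74 to -0.11), and the regulatory kinase-like subunit PIK3R4 had 77.9 and 64.2 CPM at -0.28, with an interval that started at -0.57 and ended just under 0. AMBRA1, a Beclin 1 and ubiquitin ligase adaptor (chromosome 11, 46396412 to 46594023), had 10.3 and 18.6 CPM on 206 and 33 counts at 0.84 (interval 0.27 to 1.38). AMBRA1 and ATG14 were the 2 of 6 genes of this group with intervals above 0, and UVRAG, PIK3C3 and PIK3R4 those with intervals below.

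Every measured gene of membrane supply and PI3P reading was below 0, where 55.5% of all genes were. Their summed level was 294 and 190 CPM in the control and tRF libraries, or -0.63 as a log2 ratio (interval -0.79 to -0.47). ATG2B, one of the paralogous lipid transfer proteins that feed the growing membrane (chromosome 14, 96279195 to 96363341), had 117 and 58.5 CPM on 2336 and 104 counts, at -1.0 (interval -1.30 to -0.72), just short of 2-fold. Its sum with GSKIP, which overlaps a small part of it on the other strand and adds its own counts, was at -0.26. ATG2A had 94 and 6 counts at -0.47 (interval -1.96 to 0.69). ATG2B had the largest drop in CPM of the 7 genes, and its single transcript, of 13162 bases, is the longest.

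WIPI1, a PI3P-binding propeller protein (chromosome 17, 68421281 to 68457496), had 83 counts with the control RNA and 1 with tRF-3004b. Its log2 ratio of -2.71 has an interval from -8.21 to -0.37, so its size is uncertain. WIPI2, which recruits ATG16L1 to PI3P, had 54.3 and 43.3 CPM at -0.32 (interval -0.68 to 0.01). WDR45B and WDR45, also called WIPI3 and WIPI4, stood at -0.46 (interval -0.76 to -0.17) and -0.59 (interval -1.43 to 0.13). ATG9A, the scramblase of the seed vesicles, had 20 and 16.9 CPM at -0.24 (interval -0.83 to 0.30). The intervals of ATG2B, WIPI1 and WDR45B lay below 0, and those of the other 4 held it.

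In the conjugation machinery, the E2 enzyme ATG3 and the partners ATG5 and ATG16L1 were higher. ATG3, which passes ATG8 proteins to the lipid phosphatidylethanolamine (chromosome 3, 112532510 to 112561962), had 146 and 251 CPM on 2903 and 446 counts, 1.72-fold higher at 0.79 on the log2 scale (interval 0.64 to 0.93). ATG5, which is joined covalently to ATG12 (chromosome 6, 106184476 to 106325760), had 46.1 and 86.1 CPM on 920 and 153 counts, 1.87-fold higher at 0.90 (interval 0.64 to 1.15). ATG16L1, which holds the ATG12-ATG5 conjugate at the membrane (chromosome 2, 233251673 to 233295669), had 17.7 and 27.6 CPM on 353 and 49 counts at 0.64 (interval 0.18 to 1.07). Of the 35 members, ATG3 and ATG5 had the 2 intervals that lay wholly above 0.5, and both were above 0 with TPM and 1 added, each at 0.53.

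The intervals of ATG12 and of the enzyme ATG7 held 0. ATG12, the ubiquitin-like partner of ATG5, had 99.3 and 93.4 CPM at -0.09 (interval -0.33 to 0.14), but was at 0.58 with coding transcripts alone. Its sum with AP3S1, which overlaps a small part of it on the other strand, was at 0.16 (interval 0.04 to 0.28). Most counts of that sum are those of AP3S1. The E1-like enzyme ATG7, which activates both ATG12 and the ATG8 proteins, had 30.7 and 27.6 CPM at -0.16 (interval -0.61 to 0.26). ATG10, the E2 enzyme for ATG12, had 310 and 14 counts at -0.97 (interval -1.87 to -0.21), the only gene of this group with an interval below 0. The intervals of ATG12 and ATG5 were apart.

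The ATG4 proteases trim new ATG8 proteins and release them from membranes. ATG4A, ATG4B, ATG4C and ATG4D had log2 ratios of 0.23, -0.28, -0.04 and -0.01, and all 4 intervals held 0. ATG4C, on 1887 and 164 counts, had the tightest interval, from -0.27 to 0.20, whereas ATG4D, on 68 and 6 counts, ranged from -1.51 to 1.18. ATG4A was at -0.10 with TPM and 1 added. The sum of ATG4D and KRI1, which overlaps it on the other strand, was at 0.88, and most counts of that sum are those of KRI1. Summed over the 10 genes of the conjugation machinery and the proteases, the level was 506 and 644 CPM, or 0.35 as a log2 ratio (interval 0.26 to 0.44), while the median of the 10 was -0.02. ATG3 and ATG5 carried the gain in the sum.

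In the ATG8 family, the intervals of MAP1LC3B and GABARAP held 0 and those of GABARAPL1 and GABARAPL2 lay below it. MAP1LC3B, the LC3B gene and the usual marker of autophagosomes (chromosome 16, 87392336 to 87404774), had 138 and 136 CPM on 2755 and 241 counts, at a log2 ratio of -0.03 (interval -0.22 to 0.16). That interval allows a change of at most 0.22 on the log2 scale from counting error. With TPM and 1 added, MAP1LC3B stood outside it at -0.37, where the median of all genes was -0.38. GABARAP had 66.8 and 78.8 CPM at 0.24 (interval -0.02 to 0.49), and was at -0.10 with TPM and 1 added and at -0.09 with the length trend below removed. GABARAPL2 had 127 and 103 CPM at -0.31 (interval -0.53 to -0.09), and GABARAPL1 had 280 and 14 counts at -0.83 (interval -1.72 to -0.06). The intervals of GABARAP and GABARAPL2 were apart. MAP1LC3A had 0 counts in both libraries, which by a floor of 3 counts allows up to 0.15 CPM with the control RNA and 1.69 with tRF-3004b.

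The cargo receptors differed among themselves. SQSTM1, the p62 gene (chromosome 5, 179806393 to 179838078), had 35 and 46.7 CPM on 697 and 83 counts, at 0.42 (interval 0.07 to 0.75). NBR1, a related receptor for ubiquitinated cargo (chromosome 17, 43170409 to 43211688), had 150 and 106 CPM on 2989 and 189 counts, at -0.49 (interval -0.71 to -0.28). OPTN, a receptor for damaged mitochondria and bacteria (chromosome 10, 13100082 to 13138308), had 39.4 and 28.1 CPM at -0.48 (interval -0.93 to -0.07). SQSTM1 was higher while NBR1 and OPTN were lower, with no overlap between its interval and theirs. With TPM and 1 added, SQSTM1 was at 0.09, NBR1 at -0.83 and OPTN at -0.77. Summed with MRNIP, which overlaps it on the other strand, SQSTM1 was at 0.34 (interval 0.01 to 0.66).

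TFEB, the transcription factor of lysosomal and autophagy genes, had 8 counts with the control RNA and 2 with tRF-3004b. Its interval ran from -1.78 to 3.81, and its difference was not detectable at this depth.

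Of the 37 members, 12 are described ATF4 or CHOP targets under amino acid starvation, and they did not share a direction. Their median log2 ratio was -0.06 (interval -0.31 to 0.64), with 5 above 0 and 7 below, where 55.5% of all genes were below. The intervals of ATG3, ATG5, ATG16L1 and SQSTM1 lay above 0, and those of ATG10, GABARAPL2 and NBR1 below. ATF4 itself, which is no member, had 381 and 261 CPM at -0.55 (interval -0.69 to -0.41).

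Log2 ratios were lower for longer transcripts over all genes, and the members lie on both sides of that trend. In 20 bins of all genes by count-weighted transcript length, the median log2 ratio ran from 0.75 in the shortest bin to -0.47 in the bin from 7438 to 9199 bases. The measured members had a median length of 3252 bases, close to the 3281 bases of all genes. Across the 35 members the Spearman rho of length and log2 ratio was -0.24, and across all genes it was -0.30. The points of each rho share both libraries, and genes are not independent replicates.

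With the median of its length bin subtracted, a member shows how far it stood from genes of like length. Some genes with high values stood further up: AMBRA1 was at 1.17 (interval 0.60 to 1.71), ATG14 at 0.82 and RB1CC1 at 0.59 (interval 0.43 to 0.75). Short genes with low values stood further down: WIPI1 was at -2.84, GABARAPL1 at -0.95, GABARAPL2 at -0.77 (interval -1.0 to -0.56) and WDR45 at -0.76. ULK2, one of the longest at 9095 bases, went from -1.60 to -1.13 (interval -1.75 to -0.59), and ATG2B from -1.0 to -0.60. UVRAG went from -1.67 to -1.34, ATG3 from 0.79 to 0.62 and ATG5 from 0.90 to 0.99, while PIK3C3 and PIK3R4 came to -0.01 and 0.05. The median of the members became -0.08, where that of all genes is 0.00 by construction.

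**Figure D3:**
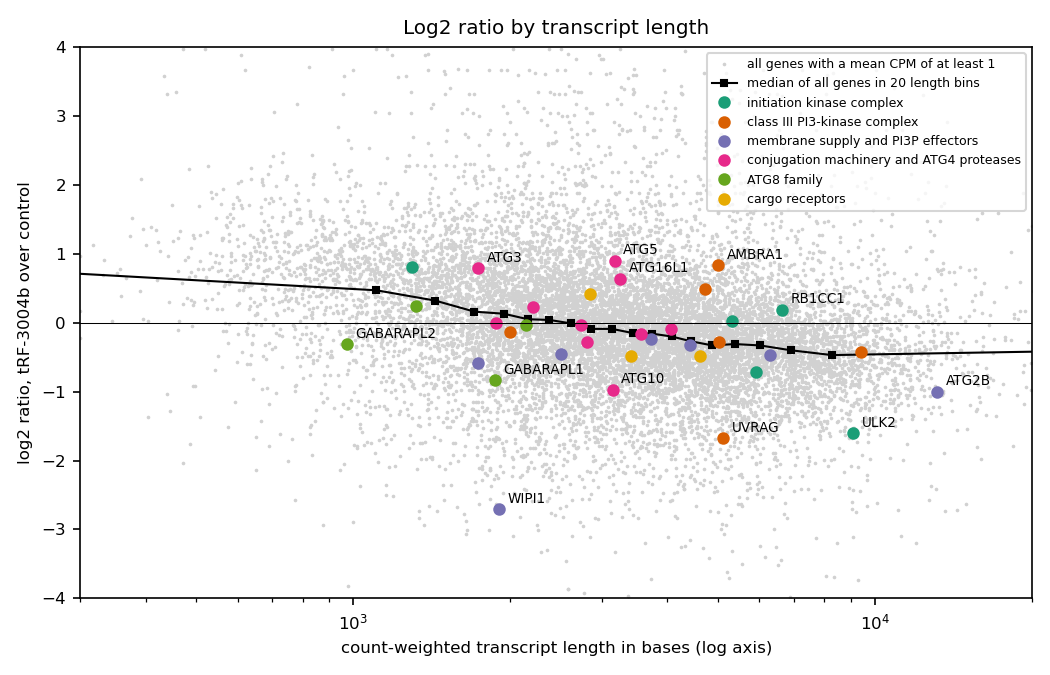
Log2 ratio of the tRF library over the control library against count-weighted transcript length in bases (log axis). Grey points are the 13750 genes that passed the filter (a few lie outside the axes), black squares the medians of 20 length bins and coloured points the 35 measured core autophagy genes by role. ATG3, ATG5 and AMBRA1 lie above the line of medians, and ULK2, UVRAG, WIPI1, GABARAPL1 and GABARAPL2 below it.

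Transcript shares within members differed between the libraries at a rate close to that of other genes. Of the 26 members with at least 20 counts in both libraries, 7 had 1 transcript in the tables and 19 had more. In 15 of the 19, or 78.9%, at least 1 transcript's share had Clopper-Pearson 95% intervals that did not meet between the libraries. The same was found for 69.3% of the 5774 genes tested by this rule. The leading transcript was another one in 7 of the 19, or 36.8%, against 24.8% of those genes. Estimated counts of transcripts that share most bases are split by a model, and these intervals leave the error of that split out.

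For ATG3 the transcripts differ much in length. NM_022488, of 1568 bases, held 82.2% (80.8 to 83.6) of ATG3 counts with the control RNA and 92.8% (90 to 95) with tRF-3004b, and the remainder fell to NM_001278712, of 3056 bases. For RB1CC1, NM_014781 held 39.9% (38.3 to 41.6) and 75.0% (70.2 to 79.4), and these transcripts, of 6636 and 6661 bases, are close in length. For ATG5, NM_004849 held 49.5% (46.2 to 52.7) and 95.4% (90.8 to 98.1). In each of these 3 genes a transcript that was well represented with the control RNA took a larger share with tRF-3004b.

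Other members went toward 1 transcript or away from it. NM_017974 of ATG16L1 held 41.6% of 353 counts and all 49 counts (interval 92.7 to 100), and NM_021980 of OPTN held 63.7% of 786 counts and all 50 (interval 92.9 to 100). SQSTM1 counts on NM_001142299 went from 54.5% (50.7 to 58.3) to 90.4% (81.9 to 95.7). BECN1 went the other way, from 62.1% on NM_001313998 to 16.4%, with 51.6% on NM_001313999 and 32.0% on NM_003766, and NM_005899 of NBR1 from 87.4% (86.1 to 88.6) to 78.8% (72.3 to 84.4). ATG4C was among the members with stable shares, at 85.5% and 82.3% for NM_178221, with intervals that overlapped. The lower depth of the tRF library goes with these shares, and its part in them was not tested.

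The split between coding and non-coding transcripts set the coding level of a few members. ATG9A counts were all coding in the control library (398 of 398, interval 99.1 to 100), whereas 4 of 30 were coding in the tRF library (13.3%, interval 3.8 to 30.7) and the other 26 fell to the non-coding NR_104255. ATG12 counts were 63.8% coding (61.6 to 65.9) with the control RNA and all coding with tRF-3004b (166 of 166, interval 97.8 to 100). With coding transcripts alone, ATG9A stood at -3.08, ATG12 at 0.58 and ATG4D, on 10 and 6 counts, at 2.58. The gene totals given above, which do not depend on this split, are the firmer values.

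**Figure D4:**
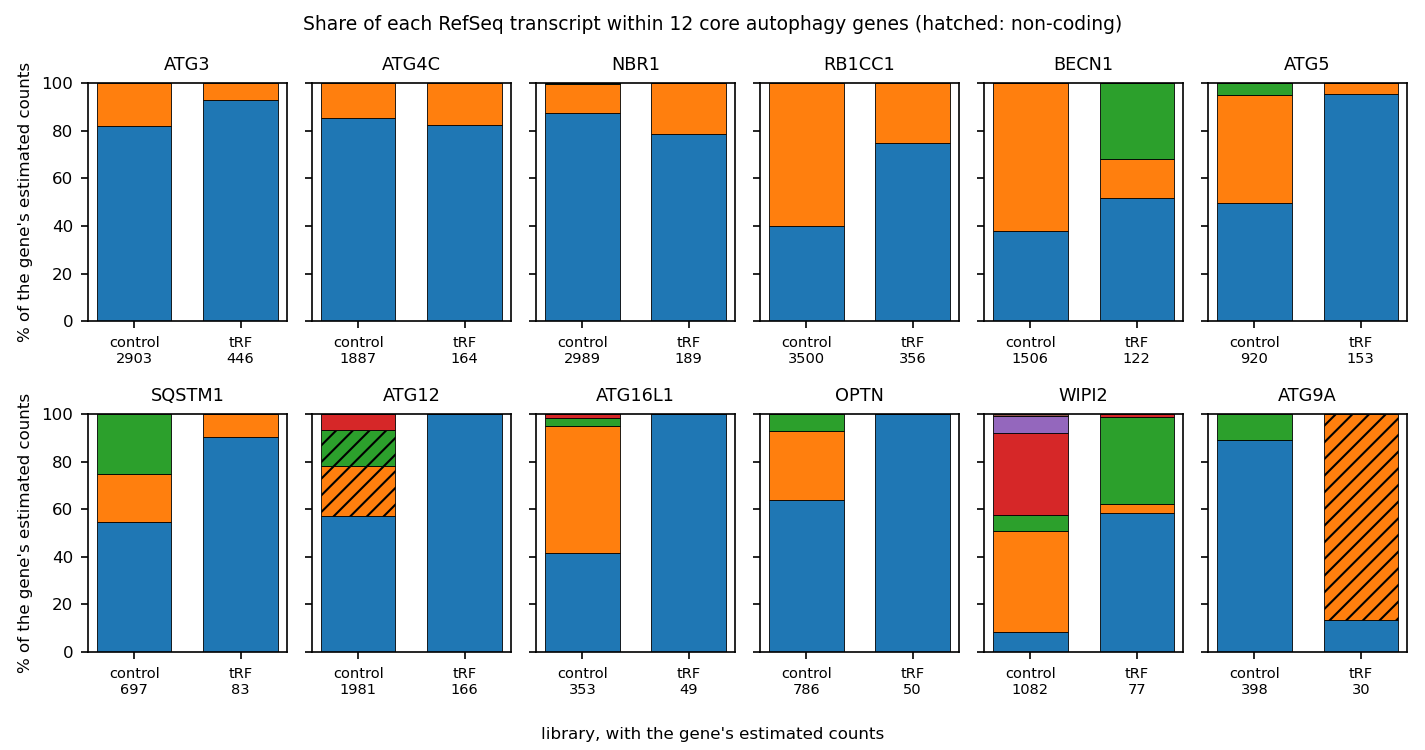
Share of each RefSeq transcript in the estimated counts of 12 core autophagy genes with several transcripts, picked after their values were seen to show large and small differences. Each panel has the control library on the left and the tRF library on the right, with the gene's counts beneath, colours for transcripts within that gene, and hatching for non-coding transcripts. ATG4C keeps its shares, ATG5, ATG12, ATG16L1 and OPTN move toward 1 transcript, and ATG9A moves to a non-coding one.

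Sequence shared with other genes touches some values. MAP1LC3B shares 12.1% of the 31-base words of its transcript with MAP1LC3B2, and the sum of both stood at 0.02 (interval -0.17 to 0.21). ATG9A shares 47.8% and GABARAP 41.3% of their words with overlapping GENCODE genes of the same strand that are not in the tables. BECN1, SQSTM1, ATG7 and WIPI1 overlap CNTD1, MRNIP, VGLL4 and ARSG on the other strand over 36.9%, 33.5%, 31.8% and 28.2% of their words. The kit was directional, but the strand setting of the counting is not known, so reads from these overlaps may be mixed. Sums with overlapping neighbours hold all counts of the neighbour, so they are not further estimates of the member alone. ATG2B was at -1.0 and its sum with GSKIP at -0.26, although they overlap over only 2.72% of ATG2B words. GSKIP gave 112 of the 216 tRF counts of that sum. ATG12 was at -0.09 and its sum with AP3S1 at 0.16, with an overlap over 8.09% of ATG12 words. AP3S1 gave 3943 of 5924 control counts and 424 of 590 tRF counts. ATG4D was at -0.01 and its sum with KRI1, which holds most of the counts of that sum, at 0.88 (interval 0.52 to 1.23). The sum of WIPI1 and ARSG stood at -1.34 (interval -2.69 to -0.29), with 118 of its 201 control counts and 6 of its 7 tRF counts from ARSG.

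Promoters were searched because TFEB binds E-box motifs and ATF4 binds composite elements near the starts of its targets. RefSeq promoter windows on GRCh38.p14, from 250 bases before to 50 bases after the start, were given for 32 of the 37 members, leaving out RB1CC1, UVRAG, WDR45B, ATG4D and MAP1LC3A. On either strand, TCACGTGA, the core of the motif TFEB is known to bind, was in 1 of the 32 and in 0.980% of all 35116 promoters. Its inner hexamer CACGTG, which every TCACGTGA contains, was in 2 of the 32 and in 7.26% of all. TGATGCAA and TGATGAAA, forms of the ATF4 element, were in none of the 32 and in 0.866% and 1.11% of all. ATG3 held the octamer 5 bases after its start and a further hexamer 18 bases before it, and ATG14 held a hexamer 21 bases before its start. The windows are on the strand of each gene, with the motif in capitals.
ATG3, chr3:112561940-112561969, minus strand: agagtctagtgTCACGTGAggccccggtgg
ATG3, chr3:112561963-112561992, minus strand: cctttctcacgtCACGTGccgggagagtct
ATG14, chr14:55411834-55411863, minus strand: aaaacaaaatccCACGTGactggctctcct

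Both genes were higher in the tRF library, at 0.79 and 0.49. A match of letters is not a binding site, and the absence of a match says only that these letters are not in the window.

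Upstream of the pathway, AMPK and mTORC1 genes went both ways. AMPK switches ULK kinases on when energy is short and mTORC1 keeps them off when amino acids are plentiful. Of 15 such genes, all measured, 9 had a ratio below 0 and 6 above, near the 55.5% below 0 of all genes, and 7 had intervals below 0 and 2 above, where 28.6% and 23.3% of all genes did, with a median of -0.25 (interval -0.82 to 0.15). PRKAB2, an AMPK beta subunit, had 93.6 and 34.9 CPM at -1.42 (interval -1.81 to -1.06), wholly beyond 2-fold. TSC1 stood at -1.11, while MLST8 and STK11 were the highest of the well counted genes at 0.49 and 0.47, both with intervals that held 0. Outside the rule for naming, DEPTOR at -1.07 and AKT1S1, on 109 and 24 counts, at 1.29 were the others past 2-fold.

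Further transcription factors known to act on autophagy genes numbered 7, a list that does not hold TFEB. The intervals of 5 lay below 0 and none above, where 28.6% and 23.3% of all genes did so. Their median was -0.70 (interval -1.81 to -0.03), beside -0.11 for all genes. DDIT3, the CHOP gene, had 320 and 8 counts at -1.81 (interval -3.06 to -0.84), and FOXO3 had 128 and 66.4 CPM at -0.94 (interval -1.22 to -0.68). ZKSCAN3, a repressor of autophagy genes, was the highest of the well counted at -0.20, with an interval that held 0. ATF4, given above, was next.

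Genes of the later steps showed no common shift. Of 15 genes of autophagosome fusion with lysosomes, 14 were measured, and the median was -0.06 (interval -0.94 to 0.38). Intervals lay above 0 for 2 and below 0 for 4, where 23.3% and 28.6% of all genes did so. The SNARE genes VAMP7 and YKT6 were highest among the well counted, at 0.38 and 0.25. VPS11, a subunit of the HOPS tether on 534 and 18 counts, and EPG5 were lowest at -1.39 and -0.94. VPS18, on 49 and 10 counts, was at 1.17 and TECPR1, on 65 and 2 counts, at -1.47, and both are named after their values were seen as the other genes past 2-fold. STX17, the autophagosomal SNARE, also outside the rule for naming, was at -0.79 (interval -1.11 to -0.49).

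Further autophagy receptors resembled the 3 member receptors in going both ways. All 19 were measured, 6 with intervals above 0 and 10 below, at a median of -0.25 (interval -0.54 to 0.37). Over all genes, 23.3% had intervals above 0 and 28.6% below. The mitophagy receptor FUNDC1 had 54.0 and 105 CPM at 0.96 (interval 0.73 to 1.19) and the ER-phagy receptor SEC62 was at 0.52. FKBP8 and BCL2L13, also mitophagy receptors, were lowest among the well counted at -1.71 and -0.89, and RETREG1, on 258 and 5 counts, was at -2.17. Of 13 other autophagy factors 10 were measured and 6 had intervals above 0, where 23.3% of all genes did. The median of the 10 was 0.46 (interval -0.93 to 0.91), with 6 ratios above 0 and 4 below. The highest of the well counted were TBK1, a kinase of cargo receptors, at 0.91 (interval 0.67 to 1.15) and the Beclin 1 complex inhibitor RUBCN at 0.81, while TP53INP1 at -0.93 had the only interval below 0. In this list ULK3 was at -0.43 with an interval that held 0. MAP1LC3B2, on 38 and 12 counts, was at 1.78. TP53INP2, on 115 and 5 counts, was at -1.01, with an interval from -2.68 to 0.23. MAP1LC3B2, TP53INP2 and RETREG1 are outside the rule for naming.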

How the data were processed

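The authors quantified each library with kallisto 0.46.1 on GRCh38, per the submitters' processing notes. Per the file headers, the authors deposited estimated counts and TPM for 70866 RefSeq transcripts; no source used here gives the annotation release, trimming or strand setting. Transcripts were named with a RefSeq table on GRCh38 (70245) and GENCODE 29 (293); 328 stayed unnamed and were left out (0.0723% of control and 0.0713% of tRF-3004b counts). Gene sums of the deposited estimated counts were rounded to whole numbers. TMM factors (1.02 and 0.983) came from edgeR 4.0.16, run in R 4.3.3; no test was run with 1 library per group. Log2 ratios have 0.5 counts added at a common library size. Intervals of ratios are exact conditional Clopper-Pearson 95% intervals, without added counts. They cover counting error only, since reads that carry no molecular identifier do not count independent molecules. Intervals of medians are order-statistic intervals over the genes of a list. Genes entered counts at a mean CPM of at least 1. Computations were tested on simulated data. The members and lists were chosen with earlier results of these data known. All members are named; of each other list, the 2 highest and 2 lowest with a mean CPM of at least 10 and any gene with an interval beyond 2-fold. The alternatives tried were scaling by total counts or by size factors of DESeq2 1.42.0, TPM with 1 added, 5 counts added, a mean CPM of at least 5, any gene with 1 count, removal of the length trend, coding transcripts only and sums over genes sharing at least 100 words of 31 bases. A mean CPM of at least 10 was chosen after seeing the data. Python 3.11.15 was used.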

Additional observations from a re-analysis of the deposited data

How the results depend on the processing

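The members' median log2 ratio of -0.24 stayed between -0.29 and -0.08 under the other alternatives and was -0.46 with gene TPM and 1 added. The median of all genes moved too. With any gene of 1 count it was -0.27, below the members at -0.20, whereas under the other alternatives the members' median was the lower one. Members at least 2-fold higher numbered 0 in the values reported, 1 with any gene of 1 count (TFEB), 1 with the length trend removed (AMBRA1) and 2 with coding transcripts only (AMBRA1 and ATG4D). In the same order, such genes numbered 1680, 3081, 1559 and 1472 over all genes. Members at least 2-fold lower numbered 3, but 5 with total estimated counts (ATG2B and ATG10 added) and 7 with gene TPM. Over all genes these numbers were 1947, 2105 and 2434. With gene TPM, 7 of 35 members against 2434 of 13750 genes made the members' share the larger one, unlike in the values reported. Counts of intervals above or below 0 stayed within 1.5 times; they cannot be given for TPM or for 5 added counts. RB1CC1 turned to -0.15 with TPM and PIK3R4 to 0.05 with the length trend removed. Of 220 alternative values of single members, 195 lay within the counting interval, 23 outside it, and the 2 named above changed the sign of a value whose interval excluded 0. A further 12 values, in 6 members whose interval held 0, changed sign too. Causes were not tested. The tRF-3004b depth limits members under 20 counts, and with 1 library per group no replicate could be left out.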

Other observations

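Lysosomal genes, the last station of the pathway, were split. All 28 were measured, 6 with intervals above 0 and 11 below, where 23.3% and 28.6% of all genes did so. The median log2 ratio was -0.13 (its interval -0.42 to 0.04) beside -0.11 for all genes. The sialidase NEU1 and the protease CTSD were highest among the well counted at 0.84 (interval 0.30 to 1.35) and 0.83 (interval 0.29 to 1.34), and MANBA and the cholesterol exporter NPC1 lowest at -1.47 (interval -2.25 to -0.81) and -1.37 (interval -1.83 to -0.95). GAA, the acid alpha-glucosidase, had 244 and 3 counts and an interval from -5.14 to -1.29, wholly beyond 2-fold. The other lysosomal genes past 2-fold, named after their values were seen, were GUSB at -1.01 and SGSH, on 74 and 1 counts, at -2.55.

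Subunits of the V-ATPase, the proton pump that acidifies lysosomes, had a median of 0.37 (interval -0.34 to 0.95). Of their 16 intervals, 8 lay above 0 and 5 below, where 23.3% and 28.6% of all genes did so. ATP6V0B had 174 and 48 counts at 1.62 (interval 1.14 to 2.10) and ATP6V0D1 was at 1.10, whereas ATP6V0A1 and ATP6V1H were lowest at -0.79 and -0.62. The median of this list was 0.11 with the length trend removed and 0.03 with TPM and 1 added.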
